A study of Striga hermonthica with 6 samples.

Results

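Of the 25056 small RNA loci counted in *Striga hermonthica*, 5011 were absent from at least 1 library and abundant in another. The loci were chosen from their counts: they are not marked as *MIRNA*, have 0 reads in at least 1 of the 6 libraries and reach 100 reads or more in at least 1 other. They make up 20.1% of the 24988 loci not marked as *MIRNA* and 27.3% of the 18326 that reach 100 reads. *S. hermonthica* parasitises cereal roots, and the plants, of the kibos ecotype, had grown with KitaakeX rice as host for 45 days, with 16 h of light at 30 °C. Small RNA was sequenced from leaf at stage 6 (replicates 1 and 2), haustorium at stage 6 (replicates 1 and 2) and haustorium with no stage in the labels (replicates 1 and 3). All groups were untreated plants of the same ecotype on the same host, the labels do not define the stage, and no source used here says that replicates were separate plants. The haustorium is the organ that joins the parasite to the host root. The counts are of reads placed on the assembly of the parasite, and no source used here gives a step that removed rice reads matching it. The counted loci have no gene names, so the labelled tissues could not be checked against marker genes.

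Plant small RNAs are cut from longer RNA by Dicer-like enzymes and guide Argonaute proteins to matching RNA or DNA. Loci of miRNAs give reads from 1 hairpin, while most other loci give siRNAs, many of them from transposons and other repeats, where they direct DNA methylation. Repeats often have many near-identical copies, so that a short read can match more than 1 locus. In *Cuscuta*, another parasitic plant, miRNAs made at the haustorium pass into the host.

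The counted reads ranged from 3031863 in stage 6 haustorium replicate 1 to 8381235 in haustorium replicate 1. The TMM factors, which scale a library by its typical locus, were 1.75 in leaf replicate 1 and 1.77 in stage 6 haustorium replicate 2, against 0.608 to 0.981 in the other 4 libraries. These libraries therefore stood apart, and the number of loci, the number that lack a whole group and the median length are also given without them. The threshold of 100 reads corresponds to 11.9 CPM (the count of a locus scaled to 1000000 counted reads of its library) in haustorium replicate 1 and to 33.0 CPM in stage 6 haustorium replicate 1. A count of 0 allows up to 3 reads, which is 0.358 to 0.989 CPM, for counting error only.

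Absence was most often limited to a single library. Of the 5011 loci, 2917 (58.2%) had 0 reads in 1 library, 1310 (26.1%) in 2, 558 (11.1%) in 3, 186 (3.71%) in 4 and 40 (0.798%) in 5. Over all 30066 values of these loci, 8155 (27.1%) were 0, 5746 (19.1%) lay between 1 and 9 reads, 9042 (30.1%) between 10 and 99 and 7123 (23.7%) at 100 or more. The loci were therefore not simply on or off, since nearly as many values fell between 1 and 99 reads as at either end together. Most reached the threshold once: 3476 loci (69.4%) had 100 reads or more in a single library, 1125 in 2, 285 in 3, 83 in 4 and 42 in all of the other 5.

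Every library lacked some of these loci, and their number ran from 787 to 2128. In leaf, 787 loci (15.7%) had 0 reads in replicate 1 and 1340 (26.7%) in replicate 2. In stage 6 haustorium, 2128 (42.5%) had 0 reads in replicate 1 and 1085 (21.7%) in replicate 2. In haustorium without a stage, 1089 (21.7%) had 0 reads in replicate 1 and 1726 (34.4%) in replicate 3. Replicates of each group thus differed in this count, and no group was uniformly high or low. In whole organs, fewer cells that use a locus and less RNA per cell cannot be told apart. The smallest library, stage 6 haustorium replicate 1, lacked the most loci, but the order of the others did not follow their counted reads. Leaf replicate 1 lacked the fewest with 7347827 reads, whereas leaf replicate 2 lacked more with 8330854. The 3 libraries with the lowest TMM factors (0.608, 0.649 and 0.833) lacked the most loci and the 3 with the highest lacked the fewest. Library sizes multiplied by their TMM factors ran in the reverse order of the loci lacked, over all 6 libraries. The part of this scaling in the counts was not tested. Over all loci not marked as *MIRNA*, the share at 0 ran from 4.77% in leaf replicate 1 to 11.5% in stage 6 haustorium replicate 1.

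**Figure D1:**
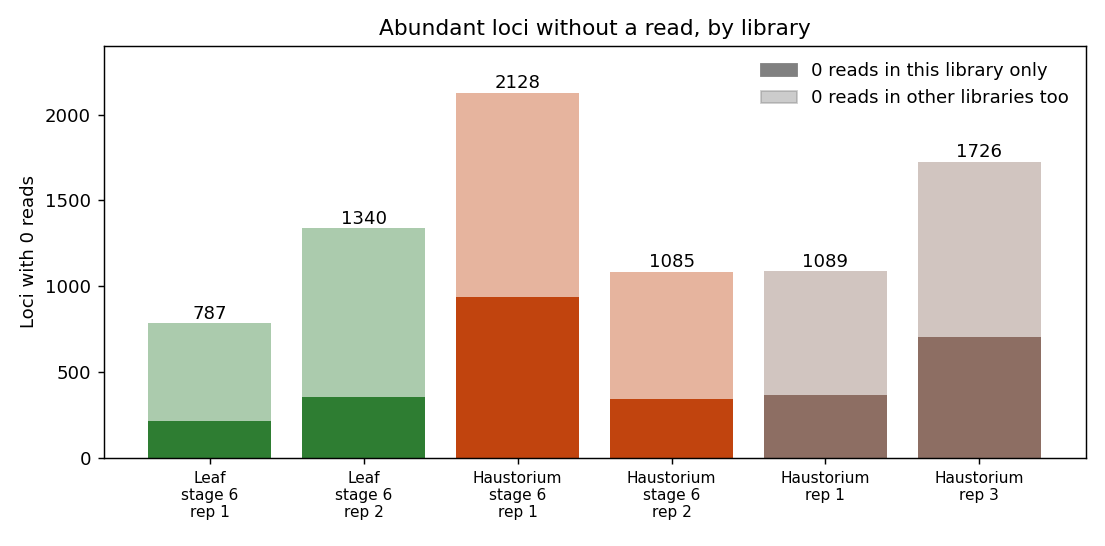
Number of loci with 0 reads in each library, out of the 5011 loci (y axis), split into loci absent from that library only (dark) and from others too (pale). Counts run from 787 in leaf replicate 1 to 2128 in stage 6 haustorium replicate 1, and the bars of a group differ in height in all 3 groups.

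The size of the gap at a 0 was read from the other libraries. At the rate of the other 5 libraries pooled, the library at 0 would have held between 8.26 and 34957 reads of the locus, with a median of 49.9. Stage 6 haustorium replicate 1 had the lowest median, 22.5 reads, and haustorium replicate 1 the highest, 69.0 reads. Since the rule asks for 100 reads elsewhere, it fixes that all these values lie above the floor of 3 reads, so they describe the size of the gap and test nothing about depth. Just inside the threshold lay 46 loci whose highest count was exactly 100, at 11.9 to 22.8 CPM. Just outside it lay 52 loci with a 0 and a highest count of 99, at 11.8 to 24.7 CPM. On the side of absence, 1184 loci that reached 100 reads were kept out by a lowest count of 1, and 735 by a lowest count of 2.

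Both libraries of a group were at 0 in a minority of the loci. This was so at 179 loci (3.57%) in leaf, 302 (6.03%) in stage 6 haustorium and 340 (6.79%) in haustorium without a stage. Together 750 loci (15%) lacked reads in a whole group, of which 71 lacked them in 2 groups, and 4261 (85.0%) did so in no group. Among the 1994 loci with a 0 that never reached 100 reads, 159 (7.97%) lacked a whole group. Without leaf replicate 1, the rule held for 3166 loci instead of 5011, and 157 lacked both stage 6 haustorium libraries and 149 both haustorium libraries without a stage. Without leaf replicate 1 and stage 6 haustorium replicate 2 together, it held for 1597 loci, of which 57 lacked both haustorium libraries without a stage.

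Shared absence was as common between groups as within them. The 6 libraries form 15 pairs, of which 3 join libraries of the same group. In these 3 pairs, 179 to 340 loci were at 0 in both libraries, and in the 12 pairs from different groups 117 to 543. The most frequent pair was stage 6 haustorium replicate 1 with haustorium replicate 3 (543 loci), followed by stage 6 haustorium replicate 1 with leaf replicate 2 (518 loci). By this count the pairs within groups ranked 6 (haustorium without a stage), 7 (stage 6 haustorium) and 14 (leaf) of 15. Libraries with many zeros share more of them in any case, so each count was also set beside the product of the shares at 0 of its libraries among the 18326 loci that reach 100 reads. Chance would give about this product if absences in different libraries were unrelated and all these loci were equally likely to be at 0. The loci were not equally likely, since the share with a 0 ran from 43.8% to 0.75% over classes of length. A count above the product is therefore not read as a departure from chance. The product was 57.5 loci in leaf, 126.0 in stage 6 haustorium and 103 in haustorium without a stage, so the observed counts were 3.11, 2.40 and 3.31 times as large. Between groups the ratio ran from 2.33 to 5.32 with a median of 2.98, a range that holds all 3 pairs within groups. Thus every pair shared more absent loci than the product, and the pairs within groups fell inside the range of the others. The highest ratio, 5.32, belonged to leaf replicate 1 with stage 6 haustorium replicate 2, where the TMM factors were highest, and the part of the scaling in it was not tested. Among the 1310 loci absent from exactly 2 libraries, 226 (17.3%) lacked both libraries of the same group, and pairs within groups are 20.0% of all pairs. These counts come from the values that chose the loci and are given without a test.

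**Figure D2:**
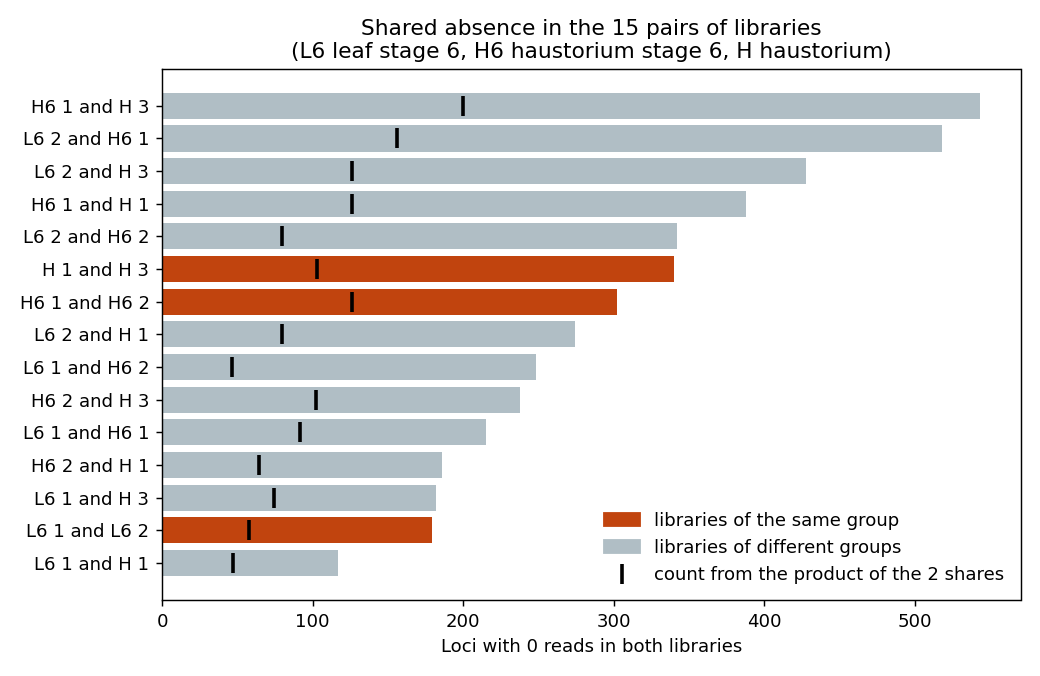
Loci with 0 reads in both libraries (x axis) for each of the 15 pairs of libraries (rows), with the count from the product of the shares as a black mark. The 3 pairs of the same group (red) lie among the pairs of different groups (grey), at 340, 302 and 179 loci, and every bar ends beyond its mark.

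The other library of the group often held the locus in abundance. At 2281 loci (45.5%), one library of a group had 0 reads and the other 100 or more. The rule asks for such counts in some pair of libraries, so it favours this share. The share for libraries of different groups was not counted, so nothing is read from it about replicates. Where leaf replicate 2 was at 0, leaf replicate 1 had 100 reads or more at 800 of 1340 loci (59.7%). Where leaf replicate 1 was at 0, leaf replicate 2 did so at 157 of 787 (19.9%). The discord in leaf was thus mostly in one direction, towards replicate 1. Stage 6 haustorium replicate 2 had 100 reads or more at 854 of the 2128 loci absent from replicate 1 (40.1%), against 79 of 1085 (7.28%) in the reverse. In haustorium without a stage, replicate 1 had 100 or more at 418 of the 1726 loci absent from replicate 3 (24.2%), against 122 of 1089 (11.2%) in the reverse. The library with 100 reads more often was the one with the higher TMM factor in each of the 3 groups, and the part of the scaling was not tested. The other library was also at 0 for 13.4% to 31.2% of the loci absent from a library.

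**Figure D3:**
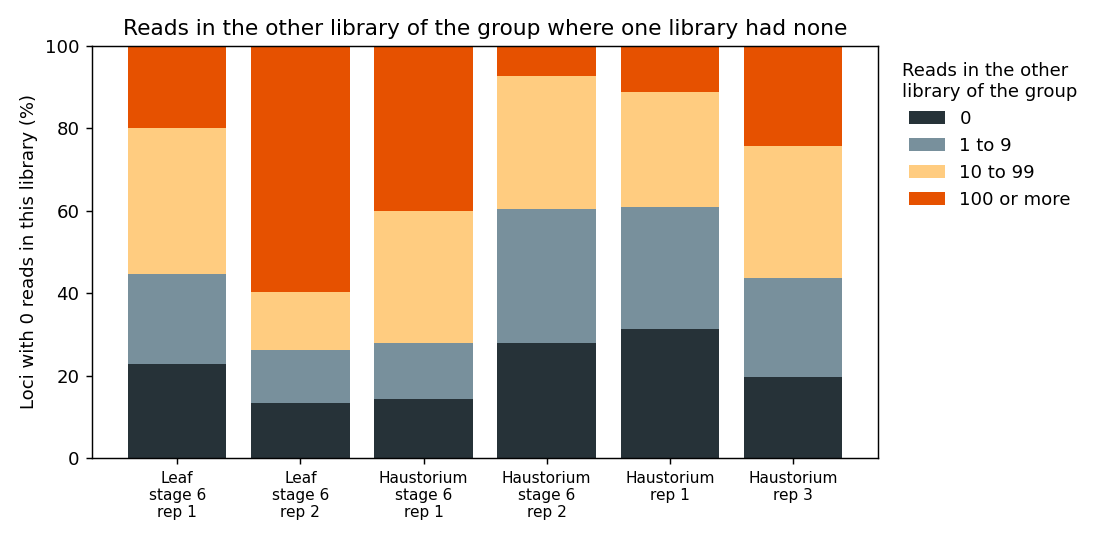
For the loci with 0 reads in each library (x axis), the share (y axis, percent) whose count in the other library of the same group was 0, 1 to 9, 10 to 99 or 100 or more. The share at 100 or more ranges from 7.28% for stage 6 haustorium replicate 2 to 59.7% for leaf replicate 2.

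Absence from a whole group with clear signal everywhere else was rare. Both leaf libraries were at 0 and all 4 haustorium libraries at 10 reads or more at 7 loci, both stage 6 haustorium libraries were at 0 and the other 4 at 10 or more at 8, and both haustorium libraries without a stage were at 0 and the other 4 at 10 or more at 36. With 100 reads in place of 10, the counts were 0, 1 and 0. The single locus, Cluster_1253, was chosen after its values were seen and lies on contig CACSLK010001570.1 of the SHERM assembly from 4668 to 5115. It had 0 reads in both stage 6 haustorium libraries, against 204 and 682 reads in leaf replicates 1 and 2 and 810 and 744 in haustorium replicates 1 and 3. All 4 haustorium libraries were at 0 at 39 loci, of which 17 had reads in both leaf libraries and 8 had at least 10 in both.

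The reverse pattern, 1 library at 0 and at least 100 reads in each of the other 5, was seen at 42 loci. The library at 0 was leaf replicate 1 at 4 of them, leaf replicate 2 at 3, stage 6 haustorium replicate 1 at 15, stage 6 haustorium replicate 2 at 7, haustorium replicate 1 at 6 and haustorium replicate 3 at 7. Conversely, 40 loci had reads in 1 library alone, 19 of them in leaf replicate 1, at 14.7 to 64.4 CPM. The others were seen in leaf replicate 2 (3 loci), stage 6 haustorium replicate 1 (4 loci), stage 6 haustorium replicate 2 (6 loci), haustorium replicate 1 (5 loci) and haustorium replicate 3 (3 loci). The highest CPM of a locus seen in 1 library alone was 565, in haustorium replicate 3.

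The loci lay mostly just over the threshold. Their highest CPM in any library had a median of 22.7, with quartiles of 17.7 and 32.2, and ran from 11.9 to 13941. At 229 loci (4.57%) it was 100 CPM or more and at 51 (1.02%) 1000 or more. The 13315 loci that reached 100 reads and were found in every library were slightly higher in level, with a median of 24.6 CPM, quartiles of 18.3 and 38.9, and 1.76% at 1000 CPM or more. The 5011 loci together held 7.87% to 10.8% of the counted reads of a library. The highest library was leaf replicate 1 at 2114 loci (42.2%), stage 6 haustorium replicate 2 at 1268 (25.3%), haustorium replicate 1 at 616, haustorium replicate 3 at 589, leaf replicate 2 at 237 and stage 6 haustorium replicate 1 at 187. The first 2 of these are the libraries that stood apart, and they were also the highest at 40.7% and 43.6% of the loci found in every library. A locus had a median of 59.2% of its reads in its highest library (quartiles 47.1% and 77.0%), against 38.4% (33.0% and 46.5%) for loci found in every library. At 702 loci (14.0%) that share was over 90%, against 59 (0.443%) of those found in every library, a difference that the rule itself favours.

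The locus with the highest CPM, Cluster_21243, lies on contig CACSLK010030927.1, which has no annotated gene, from 16050 to 16519. It had 2119 and 0 CPM in leaf replicates 1 and 2, 2900 and 2494 CPM in stage 6 haustorium replicates 1 and 2, and 0.358 and 13941 CPM in haustorium replicates 1 and 3. The haustorium value of 0.358 CPM is 3 reads, and 94691 reads were counted in the other library of that group. Its level in haustorium replicate 3 was at least 38714-fold higher than the floor of 3 reads in leaf replicate 2 allows. Stage 6 haustorium was the only group whose libraries were alike.

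Cluster_1428 (contig CACSLK010003174.1, 181455 to 181945, 10577 nt from the gene SHERM_10657) had 1346 and 6027 CPM in leaf, 0 and 2194 CPM in stage 6 haustorium and 5196 and 7552 CPM in haustorium without a stage. It was missing from stage 6 haustorium replicate 1 alone. Cluster_21102 (contig CACSLK010030875.1, 4011657 to 4012300, 11333 nt from SHERM_04991) lacked reads in the same library. It had 7.62 and 2.28 CPM in leaf, 0 and 408 CPM in stage 6 haustorium, and 5391 and 1924 CPM in haustorium without a stage. Of the 10 loci with the highest CPM it alone had both leaf libraries below 10 CPM.

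Cluster_5480 (contig CACSLK010012233.1, 2636118 to 2636533) had 75.9 and 2632 CPM in leaf, 5032 and 0 CPM in stage 6 haustorium and 284 and 3602 CPM in haustorium without a stage. The libraries of stage 6 haustorium were thus the highest and the lowest of all 6. Cluster_24410 (contig CACSLK010034598.1, 19016443 to 19016914, 304 nt from SHERM_08451) had 175 and 5023 CPM in leaf, 672 and 0 CPM in stage 6 haustorium and 2892 and 982 CPM in haustorium without a stage. Cluster_1144 (contig CACSLK010001140.1, 4917747 to 4918218), which overlaps the gene SHERM_10379, had 538 and 4958 CPM in leaf, 949 and 0 CPM in stage 6 haustorium and 3656 and 0 CPM in haustorium without a stage. All 3 loci were absent from stage 6 haustorium replicate 2.

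Cluster_3194 (contig CACSLK010008332.1, 1641503 to 1641955) was absent from 1 library of every group. It had 0 and 4815 CPM in leaf, 0 and 490 CPM in stage 6 haustorium, and 0 and 961 CPM in haustorium without a stage. Cluster_19015 (contig CACSLK010028053.1, 6159467 to 6159938) was absent from leaf replicate 1 only, with 4698 CPM in leaf replicate 2, 4326 and 890 CPM in stage 6 haustorium and 789 and 3856 CPM in haustorium without a stage. Cluster_18162 (contig CACSLK010027840.1, 5808935 to 5809406) had 235 and 4674 CPM in leaf, 0 and 619 CPM in stage 6 haustorium and 289 and 3271 CPM in haustorium without a stage. Cluster_10364 (contig CACSLK010023397.1, 7944551 to 7945121), which overlaps the gene SHERM_19858, had 0.272 and 1754 CPM in leaf, 1279 and 4486 CPM in stage 6 haustorium and 701 and 0 CPM in haustorium without a stage. None of the 10 loci was at 0 in both libraries of a group. With TMM-scaled library sizes, the highest level was 23010 CPM for Cluster_21243 and 2709 CPM for Cluster_10364. For Cluster_10364, leaf replicate 2 was then the highest library. A count of 0 stays 0 under any scaling, which does not show that the small RNA was absent. How reads that fit several loci were placed is not known here.

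**Figure D4:**
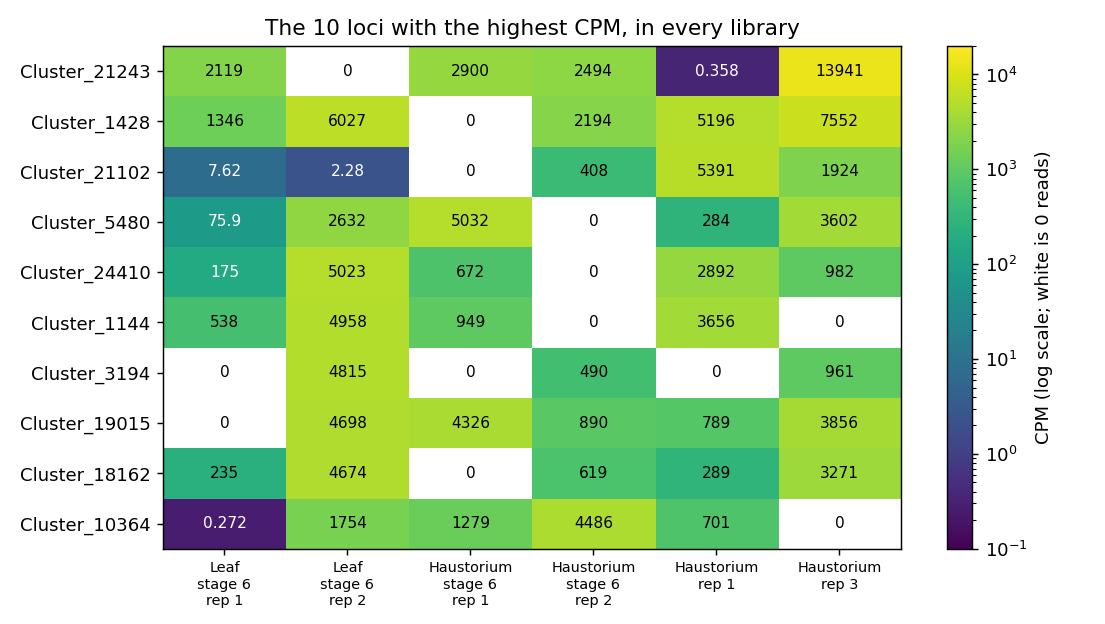
CPM of the 10 loci with the highest CPM (rows) in each of the 6 libraries (columns), coloured on a log scale with 0 reads in white. The zeros fall in all 6 libraries, and each row holds at least 1 value of 4486 CPM or more.

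For each group, the 3 loci with the highest CPM among those absent from both of its libraries are described next. Their levels in the other groups were mostly uneven. Levels over all loci absent from a whole group were not summarised. The 3 highest of leaf were Cluster_1963, Cluster_16328 and Cluster_995. Cluster_1963 (contig CACSLK010003174.1, 16006795 to 16007210) had 0 reads in both leaf libraries, 838 and 0 reads in stage 6 haustorium, and 0 and 10548 reads in haustorium without a stage. Cluster_16328 (contig CACSLK010027832.1, 2420080 to 2420515) had 6644 reads in haustorium replicate 1, 1 in stage 6 haustorium replicate 2 and 0 in the rest. A single library therefore held 92.6% of the reads of Cluster_1963 and all but 1 of those of Cluster_16328. Cluster_995 (contig CACSLK010001140.1, 2677036 to 2677506) had 0 reads in leaf, 2201 and 1522 in stage 6 haustorium and 2 and 1 in haustorium without a stage, so that both of its stage 6 haustorium libraries lay above all the others.

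In stage 6 haustorium, the 3 highest of the loci absent from both libraries were Cluster_17394, Cluster_9084 and Cluster_24980, and all had reads in the other 4 libraries. Cluster_17394 (contig CACSLK010027837.1, 5406223 to 5406659) had 6874 and 13200 reads in leaf, none in stage 6 haustorium and 5891 and 2 in haustorium without a stage. Cluster_9084 (contig CACSLK010020742.1, 1772986 to 1773456), which overlaps the gene SHERM_18452, had 477 and 10051 reads in leaf, none in stage 6 haustorium and 13130 and 7 in haustorium without a stage. Cluster_24980 (contig CACSLK010035018.1, 2951646 to 2952113, 718 nt from SHERM_09137) had 67 and 12547 reads in leaf, none in stage 6 haustorium and 12566 and 4129 in haustorium without a stage. Of the 3, only Cluster_24980 had over 10 reads in each of the 4 libraries.

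In haustorium without a stage, the 3 highest such loci shared their highest library, stage 6 haustorium replicate 1. Cluster_13504 (contig CACSLK010027752.1, 300647 to 301113, 501 nt from SHERM_23184) had 0 and 2048 reads in leaf, 7737 and 964 in stage 6 haustorium and none in haustorium without a stage. Cluster_4904 (contig CACSLK010012206.1, 4959886 to 4960613) had 36 and 49 reads in leaf and 6097 and 131 in stage 6 haustorium. Cluster_21463 (contig CACSLK010031421.1, 3335346 to 3335766, 458 nt from SHERM_05416) had 5 and 0 reads in leaf and 3018 and 741 in stage 6 haustorium. At these loci both stage 6 haustorium libraries held reads, and replicate 1 held the larger count each time.

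Of loci absent from 3 or more libraries, those with the highest CPM were Cluster_3194, Cluster_18385, Cluster_8917, Cluster_13504 and Cluster_1963. Cluster_18385 (contig CACSLK010027842.1, 7687471 to 7687905) had 3554 and 0 reads in leaf, 2532 and 0 in stage 6 haustorium and 0 and 20639 in haustorium without a stage. Cluster_8917 (contig CACSLK010020336.1, 2204776 to 2205212, 254 nt from SHERM_01545) had 0 and 22170 reads in leaf, 3577 and 0 in stage 6 haustorium and 1 and 0 in haustorium without a stage. In both, every group had 1 library with at most 1 read, and in Cluster_18385 the other library of each group held 2532 or more. The number of absent libraries bore little relation to the peak level over all loci, whose median highest CPM was 22.6 with 1 library absent, 22.5 with 2, 23.7 with 3, 25.3 with 4 and 24.1 with 5.

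Length, which the rule did not use, was shorter and narrower than in other abundant loci. ShortStack found the loci from reads of these same libraries, so length is not independent of the counts. The part of a length that reads cover was not measured. Loci counted in the same libraries are not replicates, so this and the following comparisons between classes of loci are descriptions without a test. The 5011 loci had a median length of 421 nt, with quartiles of 415 and 427 nt. The 13315 loci that reached 100 reads and were found in every library had a median of 429 nt, with quartiles of 420 and 505 nt. The most frequent length was 424 nt in both, at 371 and 936 loci. Without leaf replicate 1 and stage 6 haustorium replicate 2 the medians were 422 nt and 466 nt. The 1994 loci with a 0 that never reached 100 reads were shorter still, with a median of 415 nt. Loci of 480 nt or more show the difference most: 6.07% of the loci absent from a library had 480 nt up to 800 nt and 0.14% (7 loci) had 800 nt or more, against 23.0% and 6.95% of the abundant loci found in every library.

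Read from the other side, absence fell with length among the 18326 loci that reached 100 reads. A 0 in some library was found at 37.7% of the loci under 410 nt, 43.8% of those of 410 nt up to 420 nt, 30.8% of those of 420 nt up to 430 nt and 24.3% of those of 430 nt up to 470 nt. It was found at 21.7% of the loci of 470 nt up to 480 nt, 9.03% of those of 480 nt up to 800 nt and 0.75% of those of 800 nt or more. The fall was thus not even, and began only above 420 nt. Longer loci hold more reads in all, and their totals stand beside the shares here. For loci whose highest count was 200 or more but under 1000 reads, 46.5% of those under 430 nt had a 0 (median total 456 reads), against 17.0% of those of 430 nt up to 800 nt (710 reads) and 1.38% of those of 800 nt or more (1287 reads). With a highest count of 100 or more but under 200, the shares were 34.4%, 14.2% and 3.23%, the last being 1 of 31 loci. The median totals there were 300, 434 and 518 reads. With a highest count of 1000 or more the shares were 28.1%, 26.8% and 0.0%, so that the first 2 classes were close at this level. The part of the total in the relation with length was not tested. The shortest locus, Cluster_277, covers positions 1 to 227 of contig CACSLK010000606.1, the start of the contig. The longest, Cluster_7808 (contig CACSLK010016925.1, 4629400 to 4630554), has 1155 nt, overlaps the gene SHERM_01323, and had 117 and 0.600 CPM in leaf, 94.0 and 0 CPM in stage 6 haustorium and 111 and 0.442 CPM in haustorium without a stage.

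**Figure D5:**
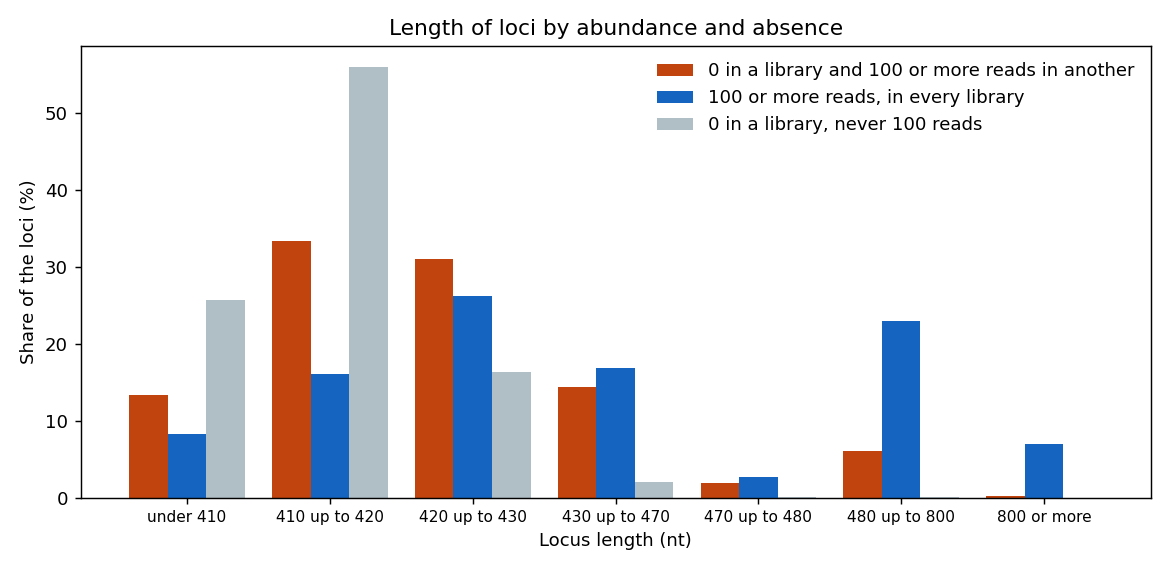
Share of loci (y axis, percent) in 7 length classes (x axis, nt, each up to but not including its upper limit) for the loci absent from a library and abundant in another (red), abundant loci found in every library (blue) and loci with a 0 that never reached 100 reads (grey). The red bars are highest at 410 nt up to 420 nt (33.3%) and the blue bars at 420 nt up to 430 nt (26.2%), and 0.14% of the red loci reach 800 nt.

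The highest loci had another length. Of the 51 loci with a highest CPM of 1000 or more, 22 (43.1%) were 470 nt or more but under 480 nt long and 13 were exactly 472 nt long, a length that was singled out after the values were seen. Between 100 and 1000 CPM, 30 of 178 (16.9%) fell in this class, and under 100 CPM 45 of 4782 (0.941%). The abundant loci found in every library had 51 of 234 (21.8%), 52 of 933 (5.57%) and 248 of 12148 (2.04%) at the same 3 levels. The step towards this length with CPM was therefore also present in loci without a 0. In all, 84 loci not marked as *MIRNA* were 472 nt long, on 48 contigs, and 36 of them were absent from a library, among them Cluster_24410, Cluster_1144, Cluster_19015 and Cluster_18162. Of the 13 with 1000 CPM or more, 2 were at 0 in leaf replicate 1 and 2 in replicate 2, 4 in stage 6 haustorium replicate 1 and 4 in replicate 2, and 2 in haustorium replicate 1 and 2 in replicate 3. Although each of the 13 was missing somewhere, their summed level was 3673 and 23452 CPM in leaf, 11564 and 6833 CPM in stage 6 haustorium and 18354 and 15076 CPM in haustorium without a stage. No library lacked the length class as a whole, and its sum was lowest in the 2 libraries that stood apart.

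The 5011 loci were spread over 604 of the 1581 contigs with a locus. The 10 contigs with most of them held 32.1%, and 33.9% of all loci not marked as *MIRNA*, so that they followed the loci as a whole. Contig CACSLK010034598.1 had the most, 246 of its 1154 loci (21.3%), followed by CACSLK010027752.1 with 202 of 1109 (18.2%) and CACSLK010030184.1 with 189 of 1193 (15.8%). Over the 61 contigs with at least 100 loci, the share ran from 10.3% (19 of 185 loci on CACSLK010027789.1) to 33.3% (40 of 120 on CACSLK010032525.1), with a median of 19.3%. On the 1463 contigs with 5 loci or fewer, 531 of 1788 loci (29.7%) were absent from a library and abundant in another. On CACSLK010034598.1, leaf replicates 1 and 2 lacked 31 and 65 loci, stage 6 haustorium replicate 1 lacked 114 and replicate 2 lacked 46, and haustorium replicate 1 lacked 52 and replicate 3 lacked 86, the same order of libraries as over all contigs.

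The loci lay farther from other loci and from genes than the abundant loci found in every library. The gap to the nearest locus had a median of 7570 nt, against 4411 nt, and 14.1% had another locus within 1000 nt, against 23.5%. In the table of 29520 annotated genes of the assembly, 512 (10.2%) overlapped a gene, 4093 (81.7%) lay between genes at a median of 5624 nt from the nearest, and 406 (8.10%) lay on contigs without an annotated gene. For the abundant loci found in every library, these shares were 10.9%, 84.0% at a median of 2565 nt, and 5.05%. Besides Cluster_1144 and Cluster_10364, the highest locus that overlaps a gene was Cluster_13038 (contig CACSLK010027624.1, 7805938 to 7806432, gene SHERM_02014). It had 0 and 3207 CPM in leaf, 2284 and 2012 CPM in stage 6 haustorium, and 101 and 3120 CPM in haustorium without a stage.

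A neighbour was seldom absent from the same library. For loci with another locus within 1000 nt, 1086 values were 0, and the neighbour was also at 0 in 115 of them (10.6%). Where the locus had reads, the neighbour was at 0 in 221 of 3144 values (7.03%). The first share was above the second in each of the 6 libraries, but it rests on few values in each. The difference was largest in stage 6 haustorium replicate 2 (7.48%, 8 of 107 values, against 3.51%). It was smallest in haustorium replicate 1 (7.74%, 12 of 155 values, against 7.09%). Beyond 10000 nt the shares were 12% and 10.4%. In most cases, then, the nearest locus within 1000 nt had reads in the library in which the locus had none. The closest loci that lacked the same library were Cluster_22329 and Cluster_22330, 28 nt apart on contig CACSLK010031655.1 (5030796 to 5031226 and 5031255 to 5031657), both at 0 in stage 6 haustorium replicate 1 only, with highest levels of 26.3 and 21.1 CPM in leaf replicate 1. Cluster_8011 and Cluster_8012 (contig CACSLK010017620.1, 54 nt apart) and Cluster_550 and Cluster_551 (contig CACSLK010000984.1, 119 nt apart) were both at 0 in haustorium replicate 3 only. Their highest levels were 32.2 and 19.6 CPM in the first of these pairs and 22.2 and 22.9 CPM in the second, all within the range of 11.9 to 13941 CPM of the 5011 loci and at or below its upper quartile.

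No locus passed a test between groups in edgeR. The common coefficient of variation that edgeR found between libraries of a group was 1. With 2 libraries in each group, the lack of calls does not show that the groups were alike. Of the 5011 loci, 4432 passed the filter on low counts and were tested, and edgeR's quasi-likelihood test called 0 of them at an adjusted p of 0.05 in leaf against haustorium, in leaf against stage 6 haustorium and in stage 6 haustorium against haustorium without a stage, as it called 0.0% of all 24421 loci tested. At an unadjusted p under 0.05 there were 409 (9.23%), 231 (5.21%) and 436 (9.84%) in the 3 contrasts, against 3.26%, 2.0% and 4.39% of all loci tested. DESeq2 called 146 (2.91%), 83 (1.66%) and 235 (5.14%), against 0.802%, 0.463% and 1.63% of all loci with an adjusted p. The loci were chosen for a 0 beside a high count, which favours large differences between any libraries, so nothing is read from these shares. Both leaf libraries were above all 4 haustorium libraries in CPM at 186 loci (3.71%, against 1.63% of all 25056 loci) and below all 4 at 116 (2.31%, against 2.0%). These counts too come from the values that chose the loci, and nothing is read from them.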

How the data were processed

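The 6 small RNA libraries hold leaf at stage 6, haustorium at stage 6 and haustorium without a stage, 2 libraries of each. After adapter trimming, the authors found loci with ShortStack 4.0.4 in its default mode on the SHERM assembly, and the deposited value is the raw read count of each locus in each library. The aligner and the placing of reads that fit several loci were not given in the sources used here. Depth was the sum of counts of a library (3031863 to 8381235), and CPM was computed over it. Members and lists were chosen with earlier results of these data known. The named loci were the 10 with the highest CPM, the 3 highest absent from each group, the 5 highest absent from 3 or more libraries, the shortest and longest, the 3 highest that overlap a gene, and the 3 closest pairs lacking the same libraries. A part for loci called by edgeR was empty. Groups were compared over all loci by quasi-likelihood in edgeR 4.0.16 under R 4.3.3 (TMM, filterByExpr, Benjamini-Hochberg, 3 residual degrees of freedom). The code was also run on simulated counts with less spread between libraries than here. That run does not show what the test could call in these data. Alternatives were DESeq2 1.42.0, other normalizations and thresholds, a replicate block and libraries left out. Floors cover counting error alone, because PCR copies count as separate reads. The spread behind the p-values is that between these libraries and may be technical. No genome sequence was used here, so no sequence is shown. Tables and figures were made with pandas 2.3.3, matplotlib 3.10.9, scipy 1.17.1 and numpy 2.4.6 under Python 3.11.15.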

Additional observations from a re-analysis of the deposited data

How the results depend on the processing

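The number of loci moved with the threshold and the libraries. It was 1732 at 200 reads, 1191 at the CPM of 100 reads in the smallest library (33 CPM), and 1597 without leaf replicate 1 and stage 6 haustorium replicate 2, a setting chosen after the data were seen. It was 3166 to 4499 when each library was left out. It was 6882 at 50 reads, and 6195 and 7508 with absence set at 1 and 3 reads or fewer. Loci that lacked both libraries of a group numbered 272 at 200 reads, 201 at the CPM threshold, 1344 and 2025 under the same settings of absence, 57 without those 2 libraries and 301 to 575 when each library was left out, which also leaves 1 group without a pair. Each of these settings changes the loci or libraries counted by construction. The median length was 430 nt at the CPM threshold, 425 nt at 200 reads and 422 nt without those 2 libraries, against 530, 504 and 466 nt for abundant loci found in every library under the same settings. The 200-read length and the lengths without 2 libraries were added after the data were seen. In the 3 contrasts DESeq2 called 146, 83 and 235 of the loci, and the cause was not tested, while edgeR called 0 in all 33 of its alternatives. With a replicate block edgeR also called 0, with 1 residual degree of freedom. Same-numbered libraries of the stage 6 groups had a correlation of deviations of -0.13, and no label ties a number to a shared plant, batch or day. After TMM scaling, the highest CPM of 29 of the 30 named loci left its counting interval, by 0.564 to 1.65 times and by over 1.5 times in either direction at 18, and 7 had another highest library.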
